A study of Mus musculus with 8 samples.

Results

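Regulators and markers of endoderm and mesoderm, 10 by name, were followed in the newly made RNA of mouse embryonic stem cells that carried a degradable form of the chromatin protein CTCF. The genes were chosen by symbol: Gata4, Gata6, Sox7, Sox17, Foxa2, Pdgfra, Eomes, T, Mixl1 and Dab2. Of these 10 genes, 6 were read here out of 16940 genes in all (Gata4, Gata6, Pdgfra, Eomes, T and Dab2), and Sox7, Sox17, Foxa2 and Mixl1 were not analysed here. Values are normalized read counts, which are reads divided by a factor for each library. A gene was tested where its mean over the 8 libraries was at least 10; 5 of the 6 genes passed and T did not.

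RNA was labelled for 15 min with 400 µM 4-thiouridine and captured (TT-seq), so a value reflects transcription during the pulse more than the stored RNA pool. All 4 groups are E14 embryonic stem cells, an established mouse line, with the genotype label CTCF AID. AID is an auxin-inducible degron, a tag that lets the auxin IAA send the tagged protein for degradation. Each group has 2 libraries. The untreated control cells and the IAA-treated control cells both carry the label overexpressed control. The other groups overexpress wild type CTCF or mutated CTCF and were also treated with IAA. Treatment lasted 12 h. The labels used here do not name the mutation, the promoter that drives the overexpressed protein, or whether each line is 1 clone. No library of a CTCF-overexpressing line without IAA was used, so the line and the form of CTCF cannot be told apart. No IAA-treated cells without the degron were used either, so an effect of IAA itself cannot be told apart from loss of CTCF. The labels do not say that the replicates came from separate cultures, so p-values measure only the spread between these libraries, which may be technical.

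In the blastocyst the inner cell mass divides into epiblast, from which embryonic stem cells are derived, and primitive endoderm, which lines the yolk sac. FGF signalling through ERK favours primitive endoderm by way of the transcription factor Gata6, and Pdgfra, Sox17, Gata4, Sox7 and Dab2 mark cells on that path. Later, Eomes, T and Mixl1 act in the primitive streak, where mesoderm and definitive endoderm arise, and Foxa2 and Sox17 belong to the endoderm branch. The cells were grown with LIF, PD0325901, which inhibits MEK upstream of ERK, and CHIR99021, which inhibits GSK3 and so stimulates Wnt signalling. CTCF binds DNA with its zinc fingers, anchors chromatin loops and can insulate a gene from the enhancers of its neighbours.

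The start regions of Pdgfra and Eomes are shown because Pdgfra gave the largest response to IAA among the members and Eomes the clearest difference between wild type and mutated CTCF. Each is the stretch of 250 bases before the RefSeq start on GRCm38.p6, plus strand, chr5:75152001-75152250 for Pdgfra and chr9:118477939-118478188 for Eomes. Capitals mark CCCTC, the short repeat for which CTCF is named.
Pdgfra: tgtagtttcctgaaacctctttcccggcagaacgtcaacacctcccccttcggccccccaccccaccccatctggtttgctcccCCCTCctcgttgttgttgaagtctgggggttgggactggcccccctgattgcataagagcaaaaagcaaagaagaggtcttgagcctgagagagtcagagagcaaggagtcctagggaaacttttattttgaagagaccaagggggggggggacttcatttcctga
Eomes: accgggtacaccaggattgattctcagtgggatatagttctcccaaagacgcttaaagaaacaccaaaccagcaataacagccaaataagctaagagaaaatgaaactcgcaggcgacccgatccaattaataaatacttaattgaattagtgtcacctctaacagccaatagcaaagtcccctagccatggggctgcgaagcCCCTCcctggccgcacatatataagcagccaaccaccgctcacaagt

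CCCTC was searched on both strands (reverse GAGGG) and was found once in each of these windows. Of all 32851 RefSeq promoter windows of 250 bases, 60.5% hold it, so its presence does not set Pdgfra or Eomes apart. A longer piece of the CTCF motif, AGGNGGC (reverse GCCNCCT), was found in 25% of the windows and in neither of the pair shown. It occurred 2 times in the window of T, which also held CCCTC 3 times. Dab2 has 2 RefSeq entries: the window at the first start held neither motif, and that at the second held AGGNGGC 2 times and CCCTC once. The window of Pdgfra had 4 CG dinucleotides and that of Eomes 8, against a median of 6 over all windows. Of the 6 genes, 4 matched the promoter table. Gata4 and Gata6 are named only. A match is a description of letters, not a measured binding site.

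Depth ran from 15671114 to 21561141 reads per library, recovered from the steps of the values, and 1 read was worth 0.836 to 1.19 normalized counts. The libraries carried the stem cell programme: all 10 naive markers were read, and their summed value was 53081 to 53843 in the untreated control cells, 54483 to 56318 in the IAA-treated control cells, 59723 to 63014 with wild type CTCF and 59319 to 61713 with mutated CTCF. The markers did not move as 1 with IAA. The mean of Tfcp2l1 was 13438 without and 18581 with it, and Dppa3 (27.7 and 107) and Klf4 (1638 and 1754) were also higher. Esrrb (15464 and 13987), Zfp42 (10021 and 9012), Fgf4 (1504 and 1033) and Tbx3 (4024 and 3597) were lower with it. Pou5f1 (1053 and 1082), Nanog (5236 and 5195) and Klf2 (1057 and 1052) changed little. The 4 primitive endoderm markers read, all of them members, summed to 195 to 228, 269 to 331, 233 to 262 and 256 to 259 in the same order. Correlation of log2 values across genes between the replicates of a group was 0.9949 to 0.996. Of the neural markers, 2 of 6 were read (Nes and Pax6) and summed to 156 to 159, 221 to 223, 223 to 263 and 274 to 284 in that order. Nes, the larger, was at 150, 210, 227 and 274 on average, while Pax6 was at 7.25, 12.1, 15.5 and 4.53, and their part in the results was not tested. The 6 fibroblast markers were not analysed here.

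**Figure D1:**
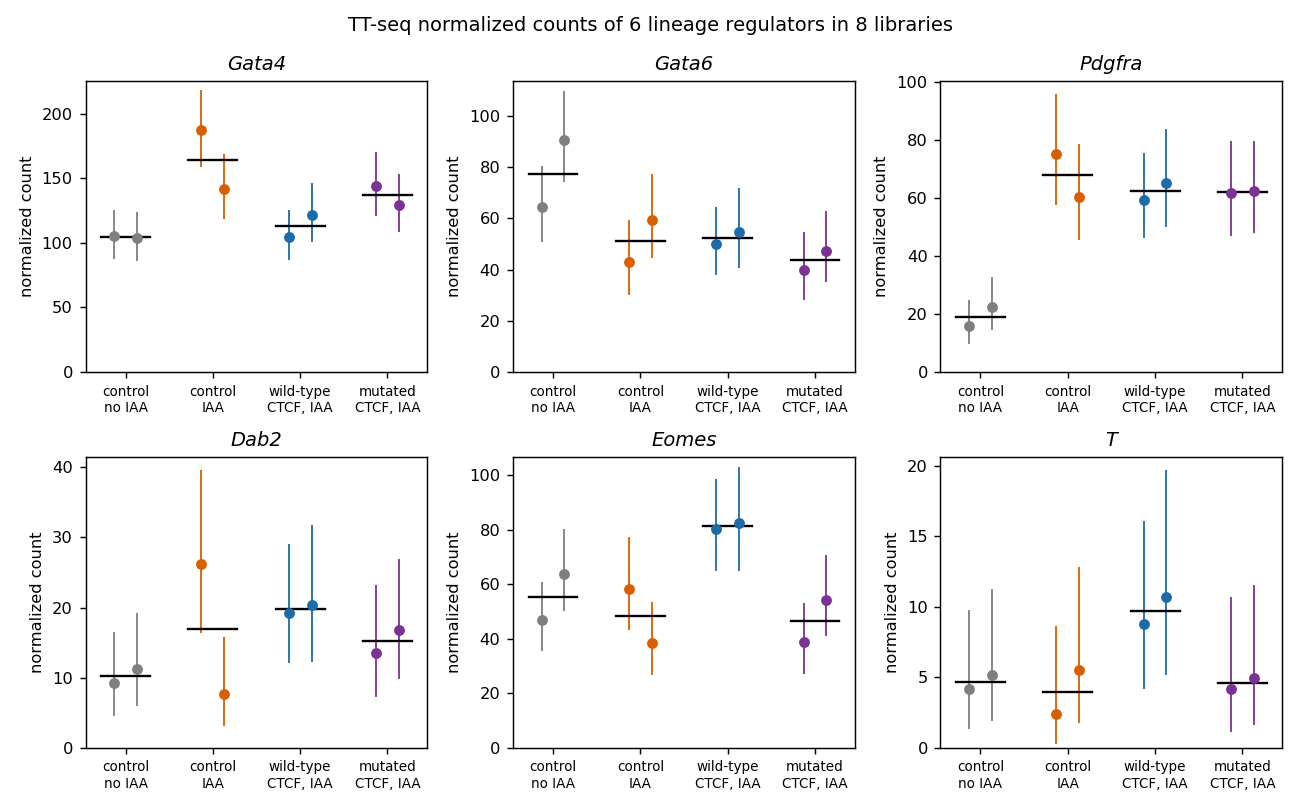
Normalized read counts (vertical axis, from 0) of the 6 members in each of the 8 libraries, by group; points are libraries with exact Poisson 95% intervals, which cover counting error only, and black bars are group means. Pdgfra stands at 15.9 and 22.4 in the untreated control cells and at 59.4 or more in the other 6 libraries, and Eomes is highest in the wild type CTCF libraries.

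With IAA in the control cells, 3 of the 5 tested members passed limma's test at an adjusted p of 0.05: Pdgfra and Gata4 rose and Gata6 fell. The shares over all 15818 genes tested were 37.7% called, 19.4% higher and 18.4% lower. Wild type CTCF against the IAA-treated control cells called 2 members, Eomes higher and Gata4 lower, where 31.6% of all genes were called (21.5% higher and 10% lower). Mutated CTCF against the same control cells called 0 of the 5 by limma, and 0 at an unadjusted p under 0.05 against 6814 of all genes, where 34.3% of all genes were called (22% higher and 12.4% lower). Mutated against wild type CTCF called 1 member, Eomes, which was lower; over all genes 34.7% were called (16.3% higher and 18.4% lower).

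Set against the untreated control cells, wild type CTCF called 3 members, Pdgfra and Eomes higher and Gata6 lower; 43.2% of all genes were called (27.6% higher and 15.6% lower). Mutated CTCF against the untreated control cells also called 3, Pdgfra and Gata4 higher and Gata6 lower, where 37.8% of all genes were called (24% higher and 13.7% lower). With 5 genes tested, none of these counts sets the members apart from a table in which 31.6% to 43.2% of the genes were called. Scaling moves the split of those calls over all genes: for wild type CTCF against the IAA-treated control cells 68.3% of them were higher, and 50.3% after median-of-ratios rescaling; for mutated CTCF the shares were 63.9% and 50.2%. Against the untreated control cells the higher share was 64% for wild type and 63.6% for mutated CTCF, and 51.8% and 52.1% after that rescaling (45.5% and 43.1% with equal totals). For IAA it was 51.3%, and 38.5% with equal totals. No called member changed direction under either scaling. The comparisons with IAA-treated control cells share those libraries, and those with untreated control cells share theirs, so they are not independent of each other. The median log2 fold change of the 5 members was 0.46 for IAA against untreated control cells (all genes tested −0.0017). Against the IAA-treated control cells it was 0.05 with the wild type form (0.06) and −0.12 with the mutated form (0.06). In bulk RNA, fewer cells of a type and less RNA per cell cannot be told apart, which applies to every value here.

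Gata6, the transcription factor that starts the primitive endoderm programme, lies at chr18:11052064-11085635 on the plus strand (GENCODE M21 on mm10, protein-coding, ENSMUSG00000005836.10). Its normalized counts were 64.4 and 90.5 in the untreated control cells, 42.9 and 59.4 in the IAA-treated control cells, 49.8 and 54.6 with wild type CTCF, and 39.7 and 47.5 with mutated CTCF. Both untreated libraries were above the 6 IAA-treated ones, and the 3 IAA-treated groups lay close together. Gata6 fell with IAA by 0.59 on the log2(value + 1) scale (SE 0.21, limma adjusted p = 0.024), from 77.4 ± 18 to 51.1 ± 12 (SD, n = 2 each). Neither CTCF-overexpressing line differed detectably from the IAA-treated control cells. The log2 difference was 0.05 for wild type CTCF (adjusted p = 0.89) and −0.21 for mutated CTCF (adjusted p = 0.47). Gata6 was lower than in the untreated control cells both in the wild type CTCF line (log2 −0.54, adjusted p = 0.034) and in the mutated one (log2 −0.80, adjusted p = 0.0021). All 3 calls need the second untreated library: without it the log2 difference was −0.34 for IAA (adjusted p = 0.37), −0.30 in the wild type CTCF line (0.41) and −0.56 in the mutated one (0.12). Without the mean-variance trend of the fit all 3 missed the threshold (adjusted p = 0.11, 0.12 and 0.051). Leaving out the first IAA-treated control library gave −0.36 for the IAA comparison (adjusted p = 0.29), and leaving out the first wild type CTCF library gave an adjusted p of 0.12 for wild type CTCF against untreated control cells.

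Gata4, a GATA factor that follows Gata6 in primitive endoderm and acts in heart and gut, lies at chr14:63198922-63271692 on the minus strand (ENSMUSG00000021944.15). It moved the opposite way to Gata6 with IAA. Its normalized counts were 105 and 103 in the untreated control cells, 187 and 142 in the IAA-treated control cells, 105 and 122 with wild type CTCF, and 144 and 130 with mutated CTCF. The IAA-treated control group was the highest, the wild type CTCF group overlapped the untreated one, and the mutated CTCF group lay between them and overlapped the IAA-treated control cells. Gata4 rose with IAA by 0.64 on the log2 scale (SE 0.14, adjusted p = 0.00036), a call kept under all 16 alternative settings. Under the settings that keep all libraries its adjusted p reached 0.032. With 1 library left out the rise lay between 0.44 and 0.84. In the wild type CTCF line it was below the IAA-treated control cells (log2 −0.52, SE 0.14, adjusted p = 0.0041), and its difference from the untreated control cells there was 0.11 (adjusted p = 0.54). The first of these depended on the first IAA-treated control library, without which it was −0.32 (adjusted p = 0.17), and on the mean-variance trend, without which the adjusted p was 0.070.

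For mutated CTCF the Gata4 difference from the IAA-treated control cells was −0.25 (adjusted p = 0.17), and it passed only without the second IAA-treated control library (−0.45, adjusted p = 0.038). Gata4 with mutated CTCF stayed above the untreated control cells (log2 0.39, adjusted p = 0.028), a call lost without either untreated library (adjusted p = 0.11 and 0.13) or without the first mutated CTCF library (0.18), under both rescalings of the libraries (0.055 and 0.086), and without the mean-variance trend (0.11). Set directly against wild type CTCF, the mutated form gave 0.27 (adjusted p = 0.14), so the forms were not shown to differ at Gata4.

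Pdgfra, the receptor for PDGF-A that marks primitive endoderm and early mesoderm, lies at chr5:75152292-75198215 on the plus strand (ENSMUSG00000029231.15). Its normalized counts were 15.9 and 22.4 in the untreated control cells, 75.0 and 60.5 in the IAA-treated control cells, 59.4 and 65.3 with wild type CTCF, and 61.6 and 62.3 with mutated CTCF. The untreated libraries stood well below the other 6, whose groups overlapped one another. Pdgfra rose 3.44-fold with IAA on the log2(value + 1) scale (log2 1.78, SE 0.21, adjusted p = 7.7e-09). Expression of wild type CTCF left a log2 difference of −0.11 from the IAA-treated control cells (SE 0.21, adjusted p = 0.73), and mutated CTCF left −0.12 (adjusted p = 0.71). Both lines remained above the untreated control cells, by 1.67 (adjusted p = 3.4e-08) and 1.66 (adjusted p = 4.1e-08). The 3 calls against the untreated control cells held under all 16 settings, while mutated and wild type CTCF differed by −0.01 (SE 0.21, adjusted p = 0.98).

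**Figure D2:**
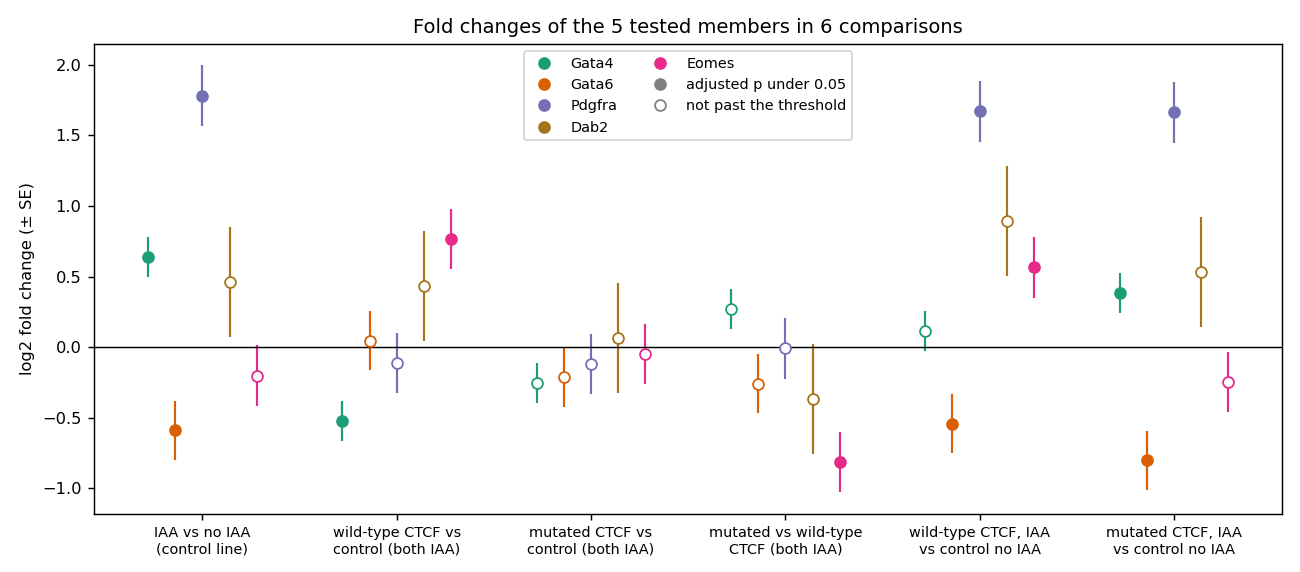
Log2 fold changes of the 5 tested members with their standard errors (limma on log2(value + 1)) in the 6 comparisons, filled where the adjusted p was under 0.05. Pdgfra stands 1.66 to 1.78 above the untreated control cells in all 3 IAA-treated groups and near 0 in the comparisons among those groups.

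Dab2, an endocytic adaptor needed in visceral endoderm, lies at chr15:6299788-6440712 on the plus strand (ENSMUSG00000022150.16) and passed no test with all 8 libraries. Its normalized counts were 9.19 and 11.2 in the untreated control cells, 26.2 and 7.70 in the IAA-treated control cells, 19.2 and 20.3 with wild type CTCF, and 13.6 and 16.8 with mutated CTCF. The IAA-treated control libraries stood at the top and the bottom of the whole range, so comparisons with that group turn on which library is kept. Closest to the threshold was the wild type line set against untreated control cells, with a log2 difference of 0.90 (SE 0.39, adjusted p = 0.0595). That difference passed without either IAA-treated control library or either mutated CTCF library. None of these is in that comparison: the difference stayed at 0.90, and only the estimate of spread, which all libraries share, changed. Without the second IAA-treated control library the IAA comparison passed (1.29, adjusted p = 0.013), and without the first the wild type form passed against that group (1.26, adjusted p = 0.033). A group of Dab2 rests on 24 to 41 reads over its libraries. The means of 10.2 and 19.8 have exact Poisson 95% intervals of 6.54 to 15.2 and 14.2 to 26.8, which cover counting error only.

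Eomes, a T-box factor of the primitive streak and of trophoblast, lies at chr9:118478212-118486132 on the plus strand (ENSMUSG00000032446.14). Its normalized counts were 46.8 and 63.8 in the untreated control cells, 58.4 and 38.5 in the IAA-treated control cells, 80.4 and 82.4 with wild type CTCF, and 38.7 and 54.4 with mutated CTCF. Both wild type CTCF libraries were above the other 6, and the other 3 groups overlapped. The IAA comparison in control cells gave −0.20 (SE 0.21, adjusted p = 0.496). In the wild type CTCF line Eomes was 1.70-fold higher than in the IAA-treated control cells (log2 0.77, SE 0.21, adjusted p = 0.0054), whereas mutated CTCF gave −0.05 (adjusted p = 0.89). The difference between the forms was itself past the threshold: Eomes was lower with mutated than with wild type CTCF by 0.81 on the log2 scale (a difference of −0.81, SE 0.21, adjusted p = 0.0027).

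Eomes with wild type CTCF was also above the untreated control cells (log2 0.57, adjusted p = 0.030). Each of these Eomes calls is lost without a certain library: the rise against the IAA-treated control cells without the second of those (0.47, adjusted p = 0.165), and the difference between the forms without the first mutated CTCF library (−0.57, adjusted p = 0.083). Without the mean-variance trend their adjusted p were 0.11 and 0.085. The call against the untreated control cells is lost without the first of those (0.35, adjusted p = 0.35) and without either wild type CTCF library (adjusted p = 0.058 and 0.084), and also without the mean-variance trend (0.16), after median-of-ratios rescaling (0.0504) and with equal totals (0.064). Of the trophectoderm markers 4 of 7 were read, and their sum was highest where Eomes was: they summed to 831 to 915 with wild type CTCF, against 578 to 585, 623 to 640 and 588 to 614 in the untreated control cells, the IAA-treated control cells and with mutated CTCF. Nearly all of that sum was Tfap2c, a gene that embryonic stem cells also express, at 837 ± 59 (SD, n = 2) in the wild type and 573 ± 19 in the mutated CTCF line. Krt8 was at 17.01 ± 2.8 in the untreated control cells, 10.8 ± 3.4 in the IAA-treated control cells, 13.9 ± 0.057 with the wild type form and 20.8 ± 0.096 with the mutated form. Krt18 was at 11.05 ± 1.4, 5.73 ± 0.32, 11.5 ± 1.1 and 7.64 ± 1.0 in that order. Gata3 was listed only through the wild type CTCF libraries, as T was, and was at 0 in both mutated CTCF libraries. The part of these markers in the Eomes result was not tested.

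T (Brachyury), the T-box factor of the streak and of nascent mesoderm, lies at chr17:8434423-8442496 on the plus strand (ENSMUSG00000062327.10) and was close to the limit of detection. Its normalized counts were 4.18 and 5.17 in the untreated control cells, 2.38 and 5.50 in the IAA-treated control cells, 8.74 and 10.7 with wild type CTCF, and 4.18 and 4.94 with mutated CTCF. The wild type CTCF libraries hold 10 reads each and every other library at most 6. Since each gene of the table reached 10 reads in at least 2 libraries, T entered it only through the wild type CTCF libraries, so that this group is the highest was fixed by that minimum. The difference between the groups was therefore given no test. The exact Poisson 95% interval of the wild type CTCF mean of 9.72, 5.94 to 15.0, overlapped that of every other group, the highest of which reached 8.66.

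Ordered by group mean, Gata4 ran from the untreated control cells (104) through wild type (113) and mutated CTCF (137) to the IAA-treated control cells (164), and of the neighbours in that order none differed past the threshold. Gata6 ran from mutated CTCF (43.6) through the IAA-treated control cells (51.1) and wild type CTCF (52.2) to the untreated control cells (77.4), where only the last step passed. For Pdgfra the step from the untreated control cells (19.1) to mutated CTCF (61.96) passed, and the steps on to wild type CTCF (62.4) and the IAA-treated control cells (67.8) did not. The Eomes order was mutated CTCF (46.5), IAA-treated control cells (48.4), untreated control cells (55.3) and wild type CTCF (81.4), and its last step passed. The ratio of the highest to the lowest group mean was 3.54 for Pdgfra, 1.94 for Dab2, 1.78 for Gata6, 1.75 for Eomes and 1.58 for Gata4.

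The members lay below the 10 naive stem cell markers in mean level per kb of gene body. In the untreated control cells the level per kb of gene body was 6.98 normalized counts for Eomes, 2.31 for Gata6, 1.43 for Gata4, 0.579 for T, 0.417 for Pdgfra and 0.0724 for Dab2. Over the 8 libraries the mean per kb of gene body was 255 for Pou5f1 and 801 for Nanog, both core pluripotency factors. It was 15.0 for Dppa3, the lowest of the 10 markers, and 7.31 for Eomes, the highest of the members. In the untreated control cells alone Dppa3 was at 27.7 ± 11 normalized counts, fewer than Gata4, Gata6 and Eomes had there. Per kb of exon, the untreated level was 26.7 for Gata4, 13.3 for Eomes, 11.9 for Gata6, 2.02 for T, 1.91 for Pdgfra and 1.39 for Dab2. The order of the members therefore depends on whether introns were counted, which is not given in the sources used here.

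Other genes of the same lineages were taken from lists that exclude the members. Of 20 extraembryonic endoderm genes, 15 were tested. With IAA 4 were higher and 1 lower, with a list median of 0.18 against −0.0017 for all genes, of which 19.4% were higher and 18.4% lower. Lrp2, the endocytic receptor megalin, rose from 396 ± 3.8 to 581 ± 5.3 (log2 0.55, SE 0.083, adjusted p = 8.7e-07), as did Nid1, a basement membrane protein (log2 0.23). Fst, which binds and blocks activin, fell from 64.9 ± 0.82 to 26.2 ± 3.4 (log2 −1.28, adjusted p = 3.3e-05). The wild type CTCF line gave 5 higher and 1 lower than the IAA-treated control cells (median 0.11, all genes 0.06, of which 21.5% were higher and 10% lower). Fewer were called without the second wild type CTCF library or without the first IAA-treated control library, and so were fewer of all genes. Col4a1, a basement membrane collagen, was higher (log2 0.73, adjusted p = 0.0028, and 0.0504 without the second wild type CTCF library). Serpinh1, a collagen chaperone, was higher too (log2 0.60, adjusted p = 0.0055, and 0.19 without that library). The lower gene was Lrp2 (log2 −0.26, adjusted p = 0.016, and 0.091 and 0.065 without the first or the second IAA-treated control library).

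Mutated CTCF against the IAA-treated control cells gave 1 higher and 6 lower of the 15 extraembryonic endoderm genes (median −0.07, all genes 0.06, of which 22% were higher and 12.4% lower). Lama1, a laminin chain, was the higher one (log2 0.24, adjusted p = 5.7e-06). Col4a1 fell from 68.5 ± 4.2 to 29.0 ± 0.41 (log2 −1.21, adjusted p = 2.4e-06) and Lrp2 from 581 ± 5.3 to 268 ± 36 (log2 −1.12, adjusted p = 5.4e-14). Mutated against wild type CTCF gave 1 higher and 9 lower (median −0.20, all genes −0.0087, of which 16.3% were higher and 18.4% lower). Fst was the higher one (log2 0.61, adjusted p = 0.043), a call lost without either untreated, either mutated CTCF or the first wild type CTCF library (adjusted p = 0.064 to 0.23). The untreated libraries are outside that comparison and enter it only through the shared estimate of spread. The lowest were Col4a1 at −1.94 (adjusted p = 7.6e-11) and its head-to-head partner Col4a2, at −1.10 (adjusted p = 0.00016). Of the primitive endoderm members, none passed in that last comparison, and among all members only Eomes did.

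Of 23 primitive streak and mesoderm genes, 11 were read and 9 were tested. Wnt3 and Wnt3a, at means of 7.09 and 9.85, missed the minimum and were given no test. Wnt3a was at 17.6 and 16.4 in the untreated control cells and 5.96 and 12.1 in the IAA-treated control cells. The means of Wnt3 in these groups were 6.35 and 6.87. With IAA 5 were higher and 0 lower (median 0.51, all genes −0.0017), where 19.4% of all genes were higher and 18.4% lower. Cdx1, a caudal homeobox factor and Wnt target, rose from 236 and 253 to 709 and 752 (log2 1.58, SE 0.084, adjusted p = 6.2e-19), and Snai1, a repressor of E-cadherin, from 5.85 and 12.1 to 36.9 and 28.6 (log2 1.82, SE 0.34, adjusted p = 4e-05). Fewer of the list were called without the second untreated library or without the second IAA-treated control library, and so were fewer of all genes. Wild type CTCF gave 1 higher and 3 lower (median 0.07, all genes 0.06), where 21.5% of all genes were higher and 10% lower. Nodal, the TGF-beta ligand that induces the streak, was higher (log2 0.38, adjusted p = 2.1e-05). The Notch ligand Dll1 (log2 −1.76, adjusted p = 7.1e-05) and the forkhead factor Foxc1 (log2 −1.50, adjusted p = 2.3e-05) were lower.

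With mutated CTCF 0 of the 9 mesoderm genes were higher and 4 lower (median −0.60, all genes 0.06), where 22% of all genes were higher and 12.4% lower. Cdx1 was at 237 and 277 (log2 −1.51, adjusted p = 7.7e-18), while with wild type CTCF it stood at 584 and 607. Snai1 was also lower (log2 −1.15, adjusted p = 0.0076), and without the first mutated CTCF library its difference was −0.62 (adjusted p = 0.23) and 2 of the list were called. Mutated against wild type CTCF gave 2 higher and 5 lower (median −0.36, all genes −0.0087, of which 16.3% were higher and 18.4% lower), or 4 called in all without the first mutated CTCF library. The higher ones were Foxc1 (log2 0.90, adjusted p = 0.0066) and Dll1 (0.87, adjusted p = 0.039). The Foxc1 call was lost without the first mutated CTCF library. The Dll1 call was lost without either untreated, either mutated CTCF or the second wild type CTCF library. The untreated libraries are outside that comparison and enter it only through the shared estimate of spread. The lowest were Snai1 (−1.22, adjusted p = 0.0050, and 0.19 without the first mutated CTCF library) and Cdx1 (−1.21, adjusted p = 6e-15). Eomes, on the same side in that comparison, differed from Cdx1 in the IAA comparison, where Cdx1 was called and Eomes was not; that difference between genes was not tested.

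Of 9 definitive endoderm genes, 5 were tested. With IAA 1 was higher and 1 lower (median −0.14, all genes −0.0017, of which 19.4% were higher and 18.4% lower), and 0 or 1 was called in all with any 1 of the control libraries left out. Gsc, a homeobox factor of the anterior streak, was higher (log2 0.90, adjusted p = 0.0017, and 0.059 without the second IAA-treated control library). Otx2, a head and epiblast homeobox factor, was lower (log2 −0.48, adjusted p = 0.047), a call lost without any 1 of the 4 control libraries (adjusted p = 0.058 to 0.32). Wild type CTCF gave 1 higher and 0 lower (median 0.28, all genes 0.06, of which 21.5% were higher and 10% lower). The higher one was Prdm1, a transcriptional repressor that acts in the endoderm and the germ line. It was at 254 to 257 in the IAA-treated control cells and 358 to 367 with wild type CTCF (log2 0.50, adjusted p = 8.5e-05). Mutated CTCF gave 0 higher and 1 lower, Prdm1 (−0.25, adjusted p = 0.037), with a list median of −0.25 (all genes 0.06, of which 22% were higher and 12.4% lower), and 0 were called without any 1 of the 4 control libraries or without the second mutated CTCF library (adjusted p for Prdm1 of 0.056 to 0.38). Mutated against wild type CTCF gave 1 higher (Hhex, a homeobox factor of anterior endoderm, at 0.40, adjusted p = 0.020, and 0.098 without the second mutated CTCF library) and 2 lower (median −0.73, all genes −0.0087, of which 16.3% were higher and 18.4% lower), with Prdm1 at −0.76 (adjusted p = 4.3e-08) and Otx2 at −0.73 (adjusted p = 0.0028).

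**Figure D3:**
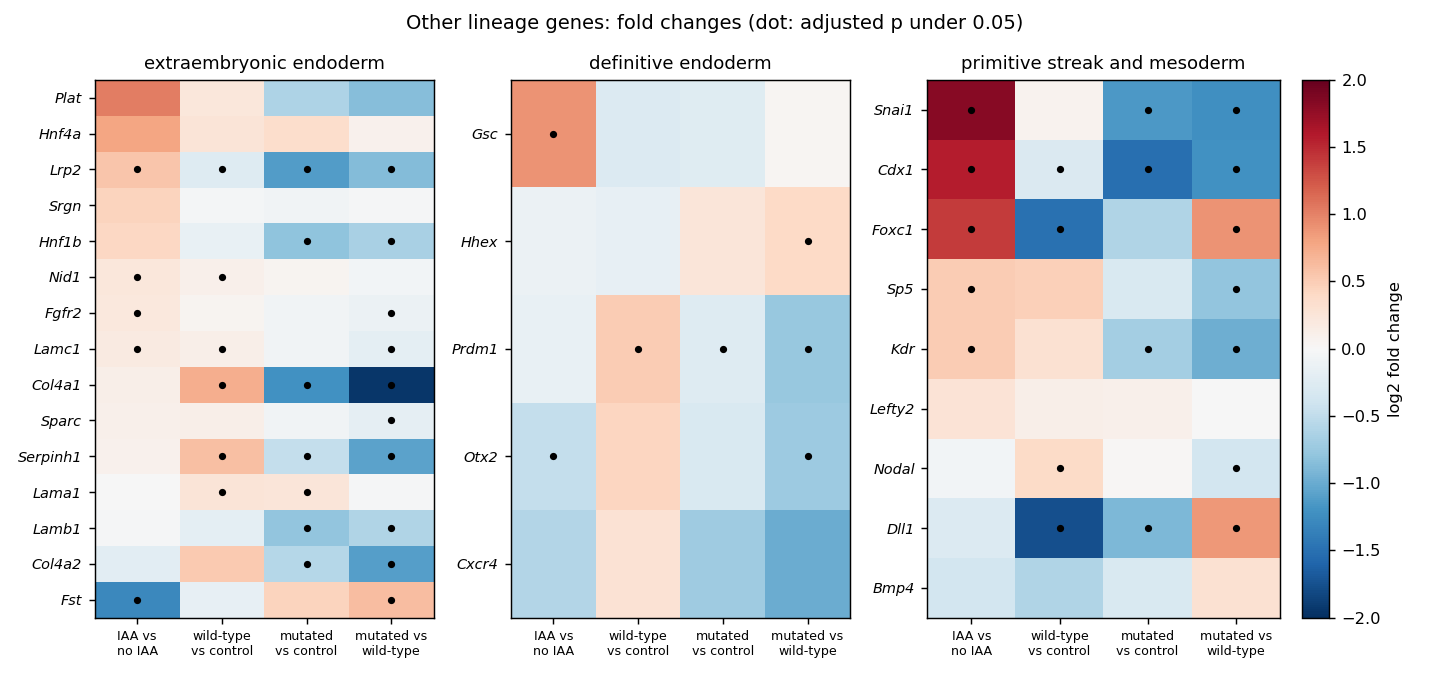
Log2 fold changes (limma on log2(value + 1)) of the tested genes of the 3 lineage lists in 4 comparisons, as a colour from blue (lower) to red (higher); rows are genes ordered by their IAA value, and a dot marks an adjusted p under 0.05. In the mesoderm list 5 of 9 genes were called higher with IAA and 4 of 9 lower with mutated CTCF against the IAA-treated control cells, where 19.4% and 12.4% of all genes were.

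CTCF acts on the surroundings of genes, so the genes within 250 kb of each member were read as well. Around the 6 members 25 genes were tested, of which 10 (40%) were called with IAA, 8 (32%) with wild type CTCF, 8 (32%) with mutated CTCF and 8 (32%) between the forms, shares near those of all genes. Itga9, an integrin subunit 121 kb downstream of Eomes on the same strand, was at 133 and 134 in the untreated control cells and at 10.7 and 11 in the IAA-treated control cells. It fell by 3.51 on the log2 scale with IAA (adjusted p = 9.2e-16) and rose again with wild type CTCF (2.06, adjusted p = 4.9e-09) and mutated CTCF (1.69, adjusted p = 2.8e-07), to means of 50.2 ± 18 and 37.5 ± 4.3. Golga4, which lies between Eomes and Itga9 at 20.1 kb from Eomes, passed no comparison (log2 −0.02 with IAA, adjusted p = 0.70).

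On the other side of Eomes, 74.9 kb upstream, the unclassified transcript 2610509F24Rik shared the high wild type CTCF value of Eomes. It stood at 41.0 and 38.8 in the untreated control cells, 59.6 and 61.6 in the IAA-treated control cells, 98.8 and 105 with wild type CTCF, and 51.2 and 59.3 with mutated CTCF. Its log2 difference was 0.74 for wild type CTCF against the IAA-treated control cells (adjusted p = 0.0020) and −0.87 between mutated and wild type CTCF (adjusted p = 0.00025). Unlike Eomes it was also called with IAA (log2 0.59, adjusted p = 0.010), although not without the second untreated library (0.069) or the second IAA-treated control library (0.051). The lincRNA Platr11, 72.1 kb upstream, was higher with IAA (log2 0.49, adjusted p = 0.0043) and lower with mutated than with wild type CTCF (log2 −0.41, adjusted p = 0.016). The first of these is lost without the first untreated library (0.31, adjusted p = 0.18), and the second without the second wild type CTCF library (−0.28, adjusted p = 0.22).

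Next to Pdgfra, the lincRNA Gm19583 ends 5.18 kb upstream on the same strand and moved the other way. It stood at 73.6 and 74.1 in the untreated control cells, 42.9 and 47.3 in the IAA-treated control cells, 60.3 and 67.4 with wild type CTCF, and 52.2 and 50.4 with mutated CTCF. It fell with IAA by 0.70 on the log2 scale (SE 0.19, adjusted p = 0.0029), where Pdgfra rose by 1.78. Wild type CTCF gave 0.49 (adjusted p = 0.043), which missed the threshold under 8 of the 16 settings, and mutated CTCF gave 0.18 (adjusted p = 0.49). Chic2, 108 kb upstream of Pdgfra on the opposite strand, gave −0.05 with IAA (adjusted p = 0.39).

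Of the 6 genes tested downstream of Gata4, the nearest 2 were called lower with IAA, opposite to Gata4, and the other 4 were not called. Fdft1, squalene synthase, 19.3 kb away, fell from 7547 ± 327 to 5400 ± 70 with IAA (log2 −0.48, adjusted p = 1.1e-14) and rose with wild type CTCF (0.33, adjusted p = 1e-09) and mutated CTCF (0.27, adjusted p = 9.9e-08). Neil2, a DNA glycosylase 5.07 kb away, was at −0.50 with IAA (adjusted p = 0.020), or −0.29 (adjusted p = 0.28) without the second IAA-treated control library. Tdh, threonine dehydrogenase, 221 kb upstream of Gata4, was at −0.18 with IAA (adjusted p = 0.00081, and 0.055 without the second untreated library), 0.58 in the wild type CTCF line and 0.76 in the mutated one. Mtmr9, 248 kb upstream and named after its values were seen, was called higher with IAA, as Gata4 was (log2 0.24, adjusted p = 0.0024).

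**Figure D4:**
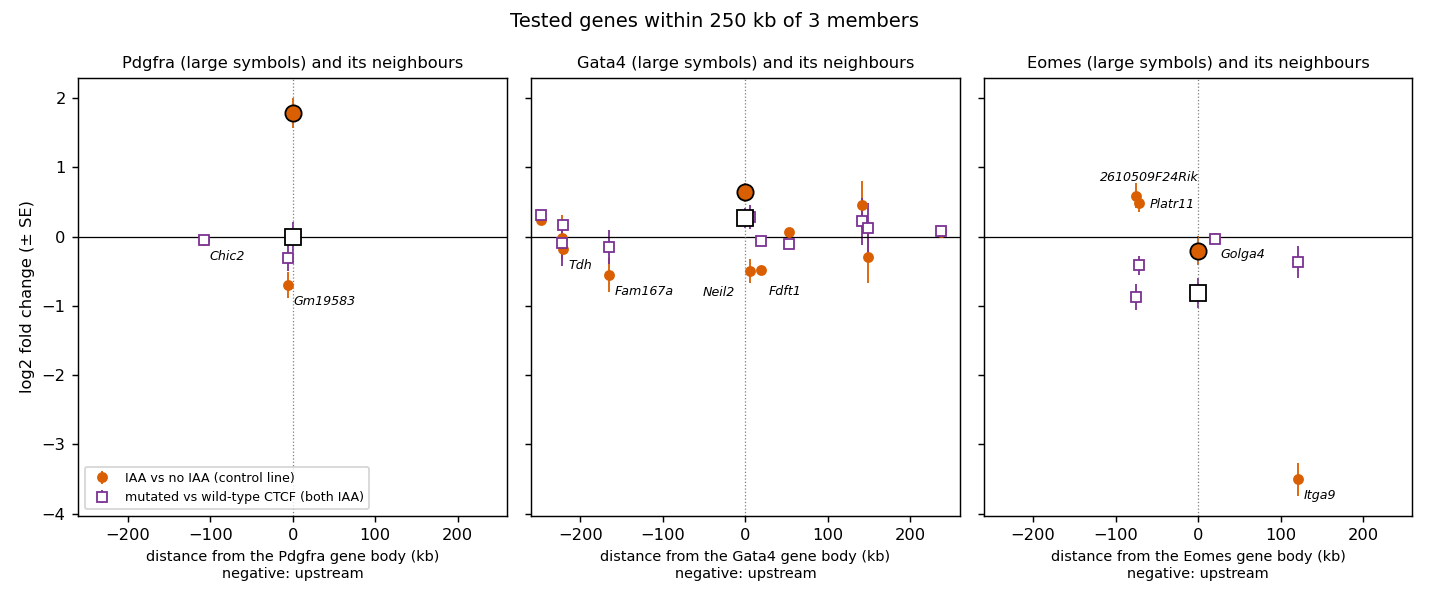
Log2 fold changes with standard errors (limma on log2(value + 1)) of Pdgfra, Gata4 and Eomes (large symbols at 0) and of the tested genes within 250 kb, by distance in kb from the member's gene body (negative is upstream), for IAA in control cells (filled circles) and mutated against wild type CTCF (open squares). Itga9 at 121 kb from Eomes has the largest fall with IAA among the genes drawn, −3.51, while Pdgfra at 1.78 and its upstream lincRNA Gm19583 at −0.70 lie on opposite sides of 0.

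Near Dab2, the antisense-class transcript Gm2245, 164 kb downstream, rose with IAA from 75.5 ± 3.2 to 212 ± 15 (log2 1.47, adjusted p = 1e-12), while Dab2 passed no test. Near T, the phosphodiesterase gene Pde10a, 82.9 kb downstream, was at 56.0 and 66.0 in the IAA-treated control cells, 53.3 and 58.8 with wild type CTCF, and 20.9 and 21.7 with mutated CTCF. It was lower with mutated CTCF than in the IAA-treated control cells (log2 −1.47, adjusted p = 4.4e-07) and than with wild type CTCF (−1.35, adjusted p = 2e-06). T2, 10.9 kb upstream of T, and Gm49987, 37.6 kb upstream, passed no comparison. The gene tested near Gata6, Mib1 at 233 kb upstream, was at −0.14 with mutated CTCF (adjusted p = 0.0013) and 0.06 with IAA (adjusted p = 0.17).

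Other annotated transcripts overlap 4 of the 6 members read on the opposite strand. In GENCODE M21, Gata6 shares 504 bases with 1010001N08Rik, Pdgfra shares 599 with Gm42802 and 451 with Gm42803, Eomes shares 574 with Gm33460, and Dab2 shares 6670 with Gm16311 and 637 with Gm18888. These transcripts were not analysed here. The libraries are strand-specific, but the strand setting of the counting is not given in the sources used here, so reads from these partners cannot be told apart from those of the members. The microRNA gene Mir7025 covers 74 bases of Pdgfra on the same strand. No overlap was found for Gata4 and T.

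The genes most like a member were found by the root-mean-square difference of centred log2 profiles over the 8 libraries, among about 11850 genes with a mean of at least 50. Closest to Gata4 were Msi1, an RNA-binding protein, at a difference of 0.089, and Efnb2, an ephrin ligand, at 0.11. Msi1 ran from 470 ± 0.66 in the untreated control cells to 723 ± 50 in the IAA-treated control cells, 528 ± 21 in the wild type CTCF line and 631 ± 6.2 in the mutated one. For Gata6 they were the lincRNA Gm19705 (0.12) and Slc25a42 (0.14), a mitochondrial carrier. For Pdgfra they were the somatostatin receptor Sstr2 (0.19) and the olfactory receptor gene Olfr45 (0.20). Sstr2 went from 22.5 ± 2.3 to 74.2 ± 15, 63.0 ± 7.4 and 82.7 ± 3.2 in the same group order. For Eomes they were the Fc receptor Fcgr2b and the adhesion molecule Mcam, both at 0.17. These likenesses were taken over libraries that share their groups and carry no test.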

How the data were processed

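TT-seq libraries of 8 samples were analysed from the table of normalized read counts that the authors deposited. Per the submitters' processing notes the tools were Trim Galore, STAR, featureCounts and DESeq2 with mm10; their roles, versions, the counted feature, the strand setting and the annotation release are not given in the sources used here. In this deposited signal, 100% of the values were whole multiples of 1 step per library (tolerance 0.01), and each listed gene reached 10 or more reads in no fewer than 2 libraries; genes below that were not analysed here. Groups and replicate numbers came from the sample titles.

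Gene positions came from GENCODE M21, which matched 16917 of the IDs (16418 with the same version), and promoters from RefSeq. The members and the lists were chosen with earlier results of these data known, and 1 gene of the definitive endoderm list is not reported here. log2(value + 1) was fitted with limma 3.58.1 (R 4.3.3) over all 8 libraries, with 1 coefficient per group, 4 residual degrees of freedom, a mean-variance trend and 6 two-sided comparisons. P-values were adjusted by Benjamini-Hochberg over the 15818 genes with a mean of at least 10, at a threshold of 0.05. Fold changes understate those of low genes because of the pseudocount of 1. All members are named. List genes are named where called, at most the 2 highest and 2 lowest per list and comparison, and neighbours where within 250 kb, at most the 2 nearest on each side. For members with a mean of at least 50, the 2 most alike genes are named. The fit was tested on simulated data. The 16 alternatives were pseudocounts of 0.5 and 10, no minimum, a minimum of 50, no mean-variance trend, the replicate block, median-of-ratios rescaling, equal totals, and leaving out each of the 8 libraries. Depth was 15671114 to 21561141 reads per library. Leaving out a library that is in neither group of a comparison keeps its log2 difference and changes only the estimate of spread, which all libraries share. Counting intervals are exact Poisson at 95%. Within groups, the chi-square of replicate counts per degree of freedom was 1.3 to 3.07, so no pair was treated as 1 library.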

Additional observations from a re-analysis of the deposited data

How the results depend on the processing

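Of the 12 calls of a member in a comparison, 4 held under all 16 settings (Gata4 with IAA, and Pdgfra in the 3 comparisons with the untreated control cells), and 0 changed direction. Without the mean-variance trend, 2 members were called for IAA (Gata6 was lost), 0 for wild type CTCF and 0 between the forms, and 1 member each for wild type and mutated CTCF against the untreated control cells. Leaving out 1 library at a time moved the number of members called in every comparison. In each comparison, leaving out a library of either of its groups also lowered the number called over all genes. Smaller counts of members or list genes under those settings therefore go with a smaller count in the whole table. Over all genes 3946 were called for IAA without the trend (5967 with it) and 3263 between the forms (5489). Against the IAA-treated control cells the counts were 2379 in the wild type line (4991) and 3228 in the mutated one (5433). Relative to the untreated control cells they were 4878 in the wild type line (6828) and 3869 in the mutated one (5975). Without the second wild type CTCF library 3274 were called for wild type CTCF. Of the extraembryonic list, 3 were called with IAA without the trend (5 with it) and 2 with wild type CTCF (6); of the definitive endoderm list 0 with mutated CTCF (1); of the mesoderm list 3 with IAA (5). A minimum mean of 50 gave 1 (2) for definitive endoderm with IAA. For mesoderm it gave 3 (5) with IAA, 2 (4) with mutated CTCF and 4 (7) between the forms. That minimum leaves 3 of 5 and 5 of 9 genes tested, without Gsc, Snai1, Foxc1 and Dll1. Of all genes it leaves 11860, of which 5350 were called with IAA, 5104 with mutated CTCF and 4821 between the forms. The cause of the other changes was not tested.

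Of the differences not called, 10 changed sign under some setting. Median-of-ratios rescaling gave −0.0092 for Gata6 with wild type CTCF, and a pseudocount of 10 gave −0.0098 for Dab2 with mutated CTCF, both against the IAA-treated control cells. Leaving out 1 library gave −0.18 to 0.28 for Gata6 with wild type and −0.44 to 0.017 with mutated CTCF, −0.26 to 0.041 and −0.27 to 0.034 for Pdgfra, and −0.074 to 0.059 for Pdgfra between the forms. The same gave −0.49 to 0.093 for Eomes with IAA and −0.34 to 0.25 with mutated CTCF. For Dab2 it gave −0.36 to 1.29 with IAA, −0.39 to 1.26 with wild type and −0.76 to 0.89 with mutated CTCF. It gave Dab2 6 calls: 1 with IAA, 1 with wild type CTCF and 4 for wild type CTCF against the untreated control cells (lowest adjusted p = 0.013, 0.033 and 0.025).

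With the replicate block the counts of members called were 3, 2, 0, 1, 3 and 3, as without it, and over all genes 6423, 5532, 5920, 5981, 7237 and 6397. Same-numbered libraries did not deviate together (r −0.022 to 0.028 over 6 pairs of groups), so the numbers do not pair the samples. Of 72 calls of list genes and neighbours, 35 were lost under some setting, 29 of them without 1 library, and 0 changed direction. The planned edgeR test was not run: a check of units did not accept the recovered reads of the second mutated CTCF library, where 1 read is worth 0.989, close to 1. The values of that library were still 100% whole multiples of its step. Depth and counting intervals rest on the steps found in all 8 libraries, that one included. T has 2 to 10 reads per library. Dab2 has 7 to 22, and its IAA-treated control libraries (26.2 and 7.70) had counting intervals of 16.4 to 39.7 and 3.10 to 15.9, which do not overlap.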

Other observations

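Around the members that were not analysed here, 14 genes within 250 kb were tested. With IAA 5 of them (35.7%) were called, 6 (42.9%) with wild type CTCF, 5 (35.7%) with mutated CTCF and 4 (28.6%) between the forms, where 37.7%, 31.6%, 34.3% and 34.7% of all genes were. Msra, a methionine sulfoxide reductase 172 kb downstream of Sox7, was at 1031 and 1032 in the untreated control cells, 1274 and 1368 in the IAA-treated control cells, 1524 and 1575 with wild type CTCF, and 1049 and 1074 with mutated CTCF. Its mutated CTCF libraries stood close to the untreated ones and below every library of the other IAA-treated groups. The log2 difference was 0.36 with IAA (limma adjusted p = 7.5e-07), −0.32 for mutated CTCF against the IAA-treated control cells (9.7e-06) and −0.55 between the forms (8.7e-11). Pinx1, a telomerase inhibitor 23.8 kb upstream of Sox7, was lower with IAA (log2 −0.22, adjusted p = 0.00036) and higher with wild type CTCF (0.28, adjusted p = 1.8e-05). Xkr6, 123 kb upstream of Sox7, was higher with IAA (0.29, adjusted p = 4.9e-05) and higher again with wild type CTCF (0.24, adjusted p = 0.0011, and 0.096 without the second IAA-treated control library). Rp1, 81.7 kb downstream of Sox17, passed no comparison.

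Lefty1, an inhibitor of Nodal signalling 238 kb upstream of Mixl1, was chosen after its values were seen. It stood at 40.1 and 43.1 in the untreated control cells, 127 and 93.5 in the IAA-treated control cells, 62.9 and 78.1 with wild type CTCF, and 61.6 and 62.3 with mutated CTCF. It rose with IAA (log2 1.37, SE 0.19, adjusted p = 1.1e-07). In both CTCF-overexpressing lines it was lower than in the IAA-treated control cells (−0.63, adjusted p = 0.0082, and −0.81, adjusted p = 0.00066). Nearer to Mixl1, Lin9 at 2.35 kb gave 0.08 with IAA (adjusted p = 0.17) and Acbd3 at 29.0 kb gave 0.10 (adjusted p = 0.17). Parp1, a DNA repair enzyme 91.8 kb downstream of Mixl1, was at −0.12 with IAA (adjusted p = 0.043), a call lost without any 1 of the 4 control libraries, and was higher with wild type (0.25, adjusted p = 0.0001) and mutated CTCF (0.26, adjusted p = 3.3e-05).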
